A study of Mus musculus with 12 samples.

Results

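Retinoid transport and retinoic acid (RA) turnover were followed in primary mouse hepatocytes through 7 genes of the 22471 features measured: Cyp26a1, Cyp26b1, Rarb, Rbp4, Ttr, Dhrs3 and Rdh10. The genes were taken by symbol. They were chosen by their CPM levels in these same 4 groups, whose values were already known, so their levels and fold changes are given as a description without p-values. All 12 libraries came from hepatocytes that the study isolated by collagenase perfusion from livers of young male C57BL/6J mice and kept in culture, with 3 libraries in each of 4 groups. Con was the control without drug or fatty acid. ConOA received oleic acid (OA), a fatty acid that fills hepatocytes with lipid droplets. BBR received benzbromarone, a drug that lowers uric acid, and BBROA received benzbromarone and OA together. The GEO labels give the tissue as liver and describe the OA groups as a high-fat diet, whereas the study's methods describe OA added to cultured cells. The methods are followed here, and the deposited values do not settle the difference. OA was bound to bovine serum albumin before it was added, and whether Con and BBR received albumin was not given in the sources used here. The series' design text calls the replicates biological, but whether they were separate mice or separate wells of a preparation was not stated, so the p-values below measure only the spread between these libraries.

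The liver takes up vitamin A as retinol and sends it out again bound to retinol-binding protein, Rbp4, which circulates in a complex with transthyretin, Ttr. Inside cells, Rdh10 oxidizes retinol to retinal, Dhrs3 reduces retinal back to retinol, and retinaldehyde dehydrogenases turn retinal into RA. RA activates nuclear receptors, among them RA receptor beta, Rarb, and the CYP26 enzymes Cyp26a1 and Cyp26b1 hydroxylate RA and so clear it. Cyp26a1, Rarb and Dhrs3 are textbook RA-induced genes, so the pathway holds its own feedback.

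RA receptors are known to bind pairs of AGGTCA-like hexamers in the same orientation, often 5 bases apart. Promoter windows from RefSeq (GRCm38.p6), 250 bases before to 50 after a transcription start, were searched on both strands for a pair in which each hexamer was AGGTCA or AGTTCA or else GGGTCA or GGTTCA. The table held windows for 5 of the 7 genes, 8 windows in all, and none for Ttr and Rdh10. With 5 bases between the hexamers, a pair was found in 32 of 32851 windows (0.0974%), among them windows of Cyp26a1 and Rarb. A spacing of 1 base occurred in 0.222% of windows and a spacing of 2 bases in 0.268%, none of them a window of the 7 genes. The stretches are shown for Cyp26a1 and Rarb because they hold the match, and for Dhrs3 because it was also low with OA. Capitals mark the 2 hexamers and their spacer.
Cyp26a1, chr19:37697558-37697797, plus strand: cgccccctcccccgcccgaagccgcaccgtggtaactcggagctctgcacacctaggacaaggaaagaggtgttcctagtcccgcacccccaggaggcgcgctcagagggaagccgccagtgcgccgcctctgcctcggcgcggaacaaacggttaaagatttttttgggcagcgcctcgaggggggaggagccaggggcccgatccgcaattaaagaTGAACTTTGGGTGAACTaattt
Rarb, chr14:16575507-16575535, minus strand: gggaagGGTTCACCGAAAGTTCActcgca
Dhrs3, chr4:144892577-144892826, plus strand: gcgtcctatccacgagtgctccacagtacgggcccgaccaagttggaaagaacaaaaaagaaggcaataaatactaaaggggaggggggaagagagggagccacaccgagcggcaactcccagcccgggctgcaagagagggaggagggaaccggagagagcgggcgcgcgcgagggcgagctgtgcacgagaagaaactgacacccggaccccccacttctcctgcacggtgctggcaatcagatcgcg
In Cyp26a1 the match lay 32 to 16 bases before the RefSeq start at position 37697808, and its hexamers read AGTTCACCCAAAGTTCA on the opposite strand. In Rarb the match lay on the gene's strand 53 to 37 bases before a start inside the gene at 16575476. That Rarb window falls in the first exon of a longer annotated transcript, and only the match with 6 bases on each side is printed. The Dhrs3 stretch has no capitals because these letters do not occur in its window. A match describes the sequence and does not show that a receptor binds there.

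The libraries held between 15485508 and 23668379 counts, and the 3 counts that a value of 0 still allows correspond to between 0.127 and 0.194 CPM (counts scaled to a common library size). These limits cover counting error only. All 10 hepatocyte markers were present, with a summed level, mostly Alb, of 42599 to 52067 CPM. Of the 10, none rose and 8 fell in BBR against Con (27.7% of all genes called), for example Fgb from 2148 ± 84.6 to 1216 ± 115 CPM (SD, n = 3). In ConOA against Con 6 rose and 2 fell (42.8% of all genes called), with Cps1 going from 17.9 ± 1.49 to 177 ± 20.2 CPM and Fgb to 1796 ± 58.9 CPM. Hepatic stellate cells, which store most of the liver's vitamin A, were represented by 15 markers that summed to between 26.9 and 32.4 CPM in all 4 groups. Only 6 of those 15 averaged at least 1 CPM, namely Reln, Dcn, Col3a1, Col1a2, Col1a1 and Pdgfra. Reln was the highest, at 13.35 ± 0.397 CPM in Con and 16.6 ± 2.50 CPM in ConOA. The markers Lrat, Hand2, Lhx2, Colec11, Hhip, Ngfr and Tcf21 were at or near 0. Kupffer cell markers summed to 23 to 37.1 CPM and sinusoidal endothelial markers to 59.3 to 74.7 CPM, but their members moved in opposite directions. All 8 Kupffer markers tested were called in ConOA against Con, 2 higher and 6 lower, with Marco at 1.20 ± 0.0554 CPM in Con and 6.89 ± 1.19 CPM in ConOA and Cd5l at 5.98 ± 0.950 and 2.87 ± 0.761 CPM. In BBROA against BBR 5 of the 6 endothelial markers tested were called, 3 higher and 2 lower (38.9% of all genes called). The biliary markers taken as a sum moved with the groups. Their sum was 590 to 722 CPM in Con, 391 to 421 CPM in BBR, 242 to 272 CPM in ConOA and 199 to 240 CPM in BBROA. Most of that sum was Spp1 (613 ± 64.1 CPM in Con and 166 ± 20.7 CPM in BBROA), which other liver cells also express, while Krt7 stayed at or below 0.170 CPM. The other biliary markers did not follow the sum. In BBR against Con all 4 tested were called, 3 higher and 1, Spp1, lower (27.7% of all genes called). Krt19 went from 6.91 ± 0.420 to 11.2 ± 3.16 CPM and Epcam from 1.86 ± 0.0781 to 3.53 ± 0.319 CPM. Sox9 went from 32.3 ± 2.84 to 48.8 ± 1.97 CPM. The part of these marker shifts in the results below was not tested. In such bulk samples, fewer cells of a type and less RNA per cell cannot be told apart.

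Per length of transcript, the 7 genes covered a wide range. Rbp4 averaged 1152 to 1290 FPKM (fragments scaled by transcript length and by library depth) over the 4 groups and Ttr 789 to 921 FPKM, the levels of abundant secreted proteins. Dhrs3 averaged 6.02 to 21.3 FPKM, Cyp26a1 2.28 to 14.5 FPKM, Rdh10 3.64 to 6.92 FPKM and Rarb 1.29 to 3.30 FPKM. Cyp26b1 was near the detection limit at 0.207 to 0.553 FPKM. Between groups the order was different: on the log2 CPM scale the group means of Cyp26a1 spanned 2.70, those of Dhrs3 1.79, Rarb 1.32, Cyp26b1 1.12 and Rdh10 0.90, while those of Ttr spanned 0.25 and those of Rbp4 0.15. The abundant carriers therefore varied least and the RA-clearing enzyme Cyp26a1 varied most.

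**Figure D1:**
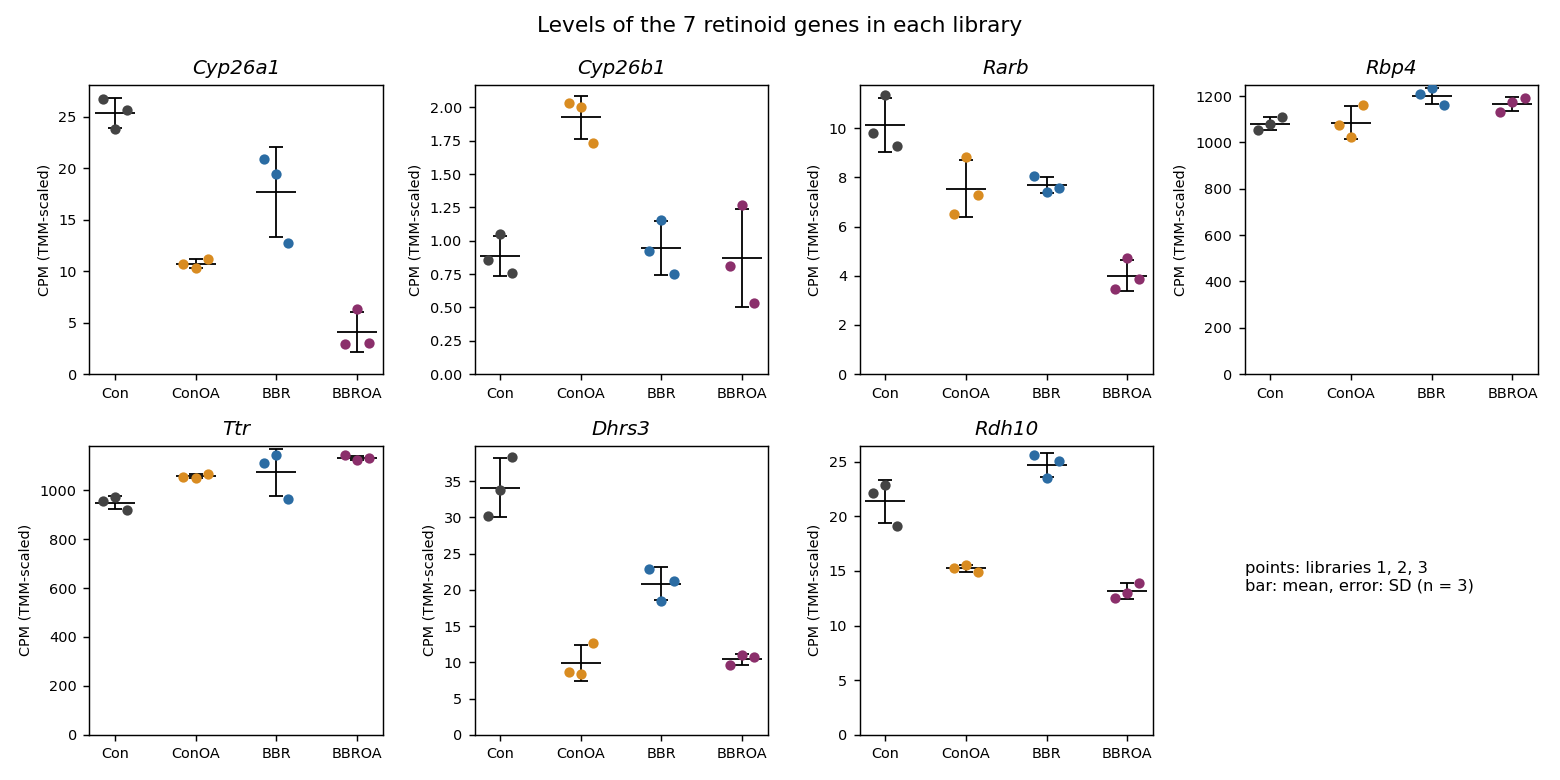
TMM-scaled CPM of each of the 7 genes (linear axis from 0) in the 12 libraries, by group, with the mean as a bar and the SD over 3 libraries as the error. Cyp26a1 steps down from Con through BBR and ConOA to BBROA without overlap, Dhrs3 is low in both OA groups, Cyp26b1 is high in ConOA alone, and Rbp4 and Ttr stay within a narrow range.

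Cyp26a1 (chromosome 19, 37697798 to 37701536, plus strand), the main RA hydroxylase of the liver, was highest in Con and lowest with both agents. Its levels were 26.7, 23.8 and 25.6 CPM in Con and 20.9, 19.4 and 12.7 CPM in BBR. The 3 BBR libraries lay below all Con libraries, with replicate 3 well below the others. With OA the levels were 10.7, 10.3 and 11.2 CPM in ConOA and 2.93, 6.34 and 2.98 CPM in BBROA. The 4 groups did not overlap, and BBROA replicate 2 stood above its 2 partners. The means were 25.4 ± 1.48 CPM in Con, 17.7 ± 4.36 CPM in BBR, 10.7 ± 0.451 CPM in ConOA and 4.08 ± 1.95 CPM in BBROA (SD, n = 3 each), so BBROA held 16.1% of the control level, a 6.21-fold difference.

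Expressed as fitted log2 fold changes, Cyp26a1 in BBR against Con was −0.51 ± 0.12 (SE). Without BBR replicate 3 this value was smaller, −0.32, and still called. In the presence of OA the corresponding difference, BBROA against ConOA, was −1.39 ± 0.21, and without BBROA replicate 2 it was −1.86. OA alone gave −1.23 ± 0.08, and OA on top of BBR gave −2.11 ± 0.24. Had the effects of BBR and OA multiplied, BBROA would have held 29.5% of the control level in place of 16.1%. How far the BBR effect with OA departed from that without it, the interaction, was −0.87 ± 0.28. It passed the threshold of an adjusted p under 0.05 with all libraries. Leaving out BBR replicate 3 (−1.06) or BBROA replicate 2 (−1.36) kept it past the threshold, and leaving out any of the other 10 libraries did not, with values from −0.92 (without ConOA replicate 2) to −0.68 (without BBROA replicate 1). DESeq2 gave −0.89 and did not call it either.

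Cyp26b1 (chromosome 6, 84571414 to 84593908, minus strand), the other RA hydroxylase among the 7, was elevated with OA alone. It had 17, 22 and 18 counts in Con, 20, 18 and 14 in BBR, 36, 37 and 34 in ConOA and 16, 24 and 9 in BBROA. Scaled to library size, its levels were 2.04, 2.0 and 1.74 CPM in ConOA, all above the other 9 libraries, which lay between 0.536 and 1.27 CPM. Con (0.887 ± 0.149 CPM), BBR (0.944 ± 0.204 CPM) and BBROA (0.871 ± 0.370 CPM) overlapped one another. The log2 fold change of ConOA against Con was 1.12 ± 0.25, and that of BBROA against ConOA was −1.12 ± 0.30. Of BBR without OA it was 0.09 ± 0.30, an error too wide to exclude a moderate change at these counts. Adding OA to BBR gave −0.09 ± 0.34. The value of BBROA against ConOA stayed past the threshold without BBROA replicate 2 (−1.49) and lost it without any of the other 5 libraries (−1.19 to −0.89). DESeq2 gave it no adjusted p and so did not call it. Its interaction of −1.20 ± 0.43 did not pass, but did without BBROA replicate 2 (−1.59). In the deposited FPKM, which follow transcript lengths, ConOA held 267.7% of the control level, against 217% in CPM.

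Cyp26a1 and Cyp26b1 carry out the same reaction and moved apart with OA. In ConOA, Cyp26a1 was at 42.3% and Cyp26b1 at 217% of Con. When BBR was added to OA, both were lower than with OA alone: Cyp26a1 fell by 61.9% and Cyp26b1 fell by 54.7%. Since Cyp26b1 reached only 0.553 FPKM where Cyp26a1 had 5.99 FPKM, Cyp26a1 remained the more abundant transcript per length in ConOA. In BBROA it averaged 2.28 FPKM against 0.243 FPKM for Cyp26b1. The third family member, Cyp26c1, did not exceed 0.907 CPM in any library.

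Rarb (chromosome 14, 16430839 to 16819156, minus strand), an RA receptor that is itself induced by RA, was lower with each agent and lowest with both. The libraries had 9.78, 11.4 and 9.26 CPM in Con, 8.05, 7.40 and 7.59 CPM in BBR, 6.51, 8.82 and 7.30 CPM in ConOA and 3.44, 4.70 and 3.87 CPM in BBROA. BBR and ConOA overlapped each other and lay between Con and BBROA, neither of which they reached. The means were 10.1 ± 1.09 CPM in Con, 7.68 ± 0.335 CPM in BBR, 7.54 ± 1.18 CPM in ConOA and 4.00 ± 0.641 CPM in BBROA, which is 39.5% of Con. Log2 fold changes were −0.39 ± 0.11 for BBR against Con, −0.92 ± 0.16 for BBROA against ConOA, −0.42 ± 0.13 for ConOA against Con and −0.94 ± 0.14 for BBROA against BBR. The values without a second agent were the less stable ones. The calls of BBR against Con (−0.30) and of ConOA against Con (−0.33) were lost without Con replicate 2. That of ConOA against Con was also lost without ConOA replicate 1 (−0.32), and that of BBR against Con in DESeq2 (−0.39). The interaction of −0.52 ± 0.19 was not called with all libraries, but was without ConOA replicate 1 (−0.61) or BBROA replicate 2 (−0.68).

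Dhrs3 (chromosome 4, 144892827 to 144928209, plus strand), the retinal reductase, had the largest response of the 7 genes to OA without drug. It measured 30.3, 33.7 and 38.4 CPM in Con and 22.9, 18.5 and 21.2 CPM in BBR, with every BBR library below every Con library. With OA it measured 8.71, 8.33 and 12.7 CPM in ConOA and 9.61, 11 and 10.7 CPM in BBROA, and these groups overlapped. Con averaged 34.1 ± 4.07 CPM, BBR 20.9 ± 2.24 CPM, ConOA 9.92 ± 2.43 CPM and BBROA 10.5 ± 0.750 CPM. With OA alone Dhrs3 decreased by 70.9%, a log2 fold change of −1.77 ± 0.13, and with BBR alone it decreased by 38.8% (−0.70 ± 0.09). Once OA was present, BBR made no called difference, at 0.07 ± 0.14. Without ConOA replicate 3, the highest of its group, that value was 0.29 and still not called, and without ConOA replicate 1 or 2 it was just below 0 (−0.018 and −0.048). OA added to BBR gave −1.01 ± 0.10. The product of the single effects would be 17.8% of Con, and BBROA held 30.7%. The interaction was 0.77 ± 0.18 and stayed past the threshold whichever library was left out (0.64 to 1.0). Its sign was opposite to that of Cyp26a1, the other strongly lowered gene.

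Rdh10 (chromosome 1, 16105774 to 16133734, plus strand), which catalyses the step that Dhrs3 reverses, had BBR differences of opposite sign without and with OA. In Con it had 22.2, 22.9 and 19.2 CPM, and in BBR 25.6, 23.5 and 25.1 CPM, slightly higher without overlap. In ConOA it had 15.3, 15.5 and 14.9 CPM, and in BBROA 12.5, 13 and 13.9 CPM, slightly lower without overlap. Means were 21.4 ± 1.97 CPM in Con, 24.7 ± 1.09 CPM in BBR, 15.2 ± 0.312 CPM in ConOA and 13.2 ± 0.709 CPM in BBROA. BBR against Con gave a log2 fold change of 0.22 ± 0.08, which was called, and BBROA against ConOA gave −0.22 ± 0.08, which was not. The first call was weak, being lost in DESeq2 (0.22) and without Con replicate 1 (0.25), Con replicate 3 (0.14), BBR replicate 1 (0.20) or BBR replicate 3 (0.21). Rdh10 was lower with OA in both settings, at −0.48 ± 0.08 against Con and −0.92 ± 0.08 against BBR on the log2 scale, and these calls held without any single library. The interaction, −0.43 ± 0.11, also held without any single library (−0.49 to −0.35).

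Rbp4 (chromosome 19, 38116629 to 38125281, minus strand) lies 415.09 kb from Cyp26a1 on the same chromosome and did not share its pattern. The carrier measured 1056, 1082 and 1108 CPM in Con, 1207, 1234 and 1162 CPM in BBR, 1074, 1022 and 1161 CPM in ConOA and 1130, 1176 and 1191 CPM in BBROA. Only Con and BBR were free of overlap among the pairs compared. The difference between them was 11%, a log2 fold change of 0.16 ± 0.05, and its call was lost without Con replicate 1 (0.14), Con replicate 2 (0.16) or BBR replicate 2 (0.14). OA against Con was 0.01 ± 0.06, BBROA against ConOA was 0.10 ± 0.05 and BBROA against BBR was −0.04 ± 0.04. None of these was called, and their errors leave room only for small changes.

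Ttr (chromosome 18, 20665280 to 20674321, plus strand), the plasma partner of Rbp4, was lowest in Con. Its libraries had 955, 974 and 920 CPM in Con, 1110, 1146 and 963 CPM in BBR, 1056, 1051 and 1065 CPM in ConOA and 1142, 1124 and 1130 CPM in BBROA. BBR replicate 3 fell within the Con range, whereas both OA groups lay above Con. BBR against Con was 0.18 ± 0.06 on the log2 scale, a call lost without Con replicate 1 (0.19), Con replicate 2 (0.20), Con replicate 3 (0.16), BBR replicate 1 (0.16) or BBR replicate 2 (0.13). ConOA against Con was 0.16 ± 0.05, lost without Con replicate 3 (0.14) and with upper quartile scaling (0.12). BBROA against ConOA (0.10 ± 0.04) and BBROA against BBR (0.08 ± 0.06) were not called. For scale, 20 other plasma proteins made by hepatocytes were counted. In BBR against Con none of the 20 rose and 7 fell (35.0% called, beside 27.7% of all genes), with a median log2 fold change of 0.01 (all genes, −0.00085). In ConOA against Con 4 rose and 9 fell (65.0% called, beside 42.8% of all genes), with a median of −0.11 (all genes, −0.0060).

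Counted together, 6 of the 7 genes passed the threshold in BBR against Con, where 27.7% of all genes tested passed. They were 3 higher (13.2% of all genes) and 3 lower (14.5%). In BBROA against ConOA 3 passed, all lower, against 4.59% of all genes in either direction, 1.95% higher and 2.63% lower. These were Cyp26a1, Cyp26b1 and Rarb. OA against Con called 6 (42.8% of all genes), of which 2 were higher (21.3%) and 4 lower (21.5%). BBROA against BBR called 4 (38.9%), all lower (18.8% of all genes, with 20.1% higher). The interaction called 3 (12.2%), with Dhrs3 positive (6.87%) and Cyp26a1 and Rdh10 negative (5.31%). The genes were picked for these responses, so nothing is read from the counts. With any single library left out, BBR against Con called between 3 and 5 of the genes, the lowest without Con replicate 1 or Con replicate 2. BBROA against ConOA then called 2 or 3, OA against Con 5 or 6, BBROA against BBR 4 every time, and the interaction 2 to 5, the highest without BBROA replicate 2. Over the 7 genes the median log2 fold change was 0.09 in BBR against Con and −0.22 in BBROA against ConOA, beside −0.00085 and −0.00031 over all genes.

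**Figure D2:**
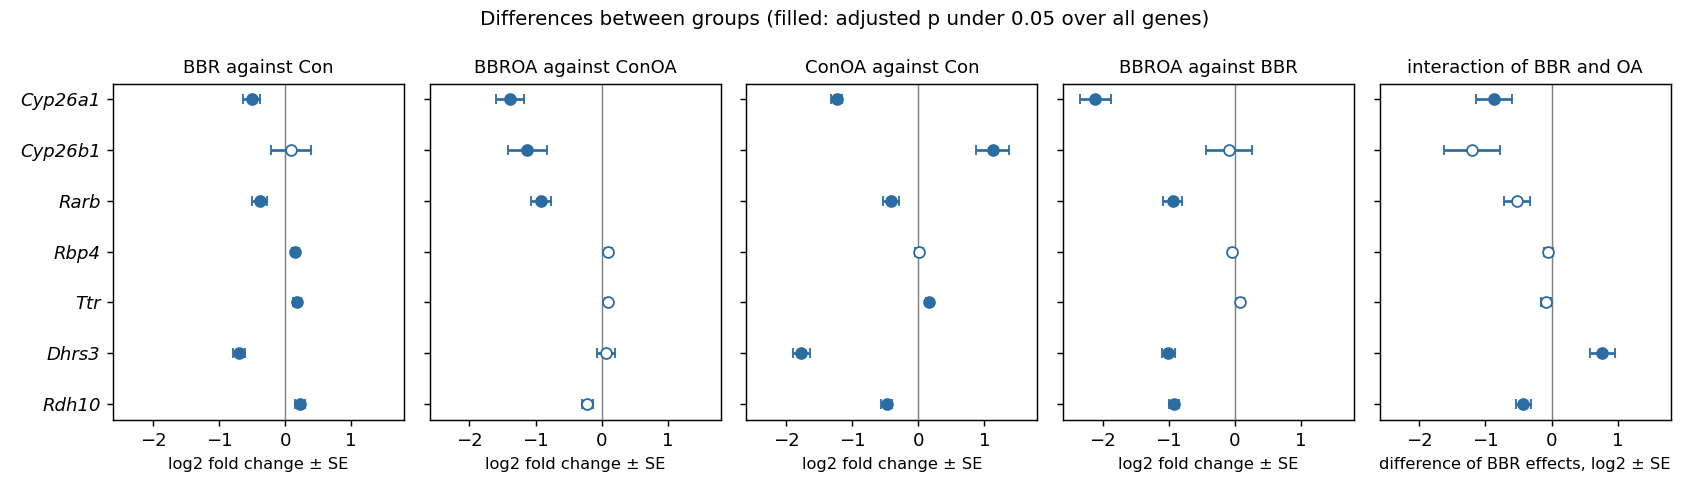
Fitted log2 fold changes of the 7 genes with their SE in the 4 group comparisons, and in the last panel how far the BBR effect with OA departed from that without it. Filled points passed an adjusted p of 0.05 over all genes. Cyp26a1 and Rarb lie left of 0 in all 4 comparisons, and Dhrs3 is near 0 in BBROA against ConOA (0.07).

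The rest of the pathway was taken from a list of 54 genes in 10 roles. Of these, 39 had enough counts to be tested in at least 1 comparison, and the other 15 averaged at most 0.127 CPM. In BBR against Con 7 of 39 rose and 10 fell, a share of 43.6% beside 27.7% of all genes. In BBROA against ConOA 2 of 35 rose and 2 fell (11.4% beside 4.59%). OA against Con had 6 of 35 up and 10 down (45.7% beside 42.8%), and BBROA against BBR had 7 of 36 up and 12 down (52.8% beside 38.9%). The interaction passed in 11 of 39 genes, positive in 7 and negative in 4 (28.2% beside 12.2%).

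RA synthesis was the only role with several tested genes in which all of them fell with BBR. In BBR against Con 5 of 5 were lower, beside 14.5% of all genes. The genes were grouped as listed, and whether the product of each makes RA was not tested. The only gene tested in the role of retinol-RBP4 receptors, Stra6l, fell too (−0.57 ± 0.06). Aldh1a1, the main retinaldehyde dehydrogenase of the adult liver, went from 217 ± 11.2 CPM in Con to 119 ± 22 CPM in BBR (log2 fold change −0.85 ± 0.09, edgeR adjusted p = 3.03e-06). Aox3, an aldehyde oxidase, went from 15.2 ± 0.514 to 7.98 ± 0.0537 CPM (−0.92 ± 0.09, edgeR adjusted p = 1.46e-06). In the same comparison 8 of the 10 hepatocyte markers fell too, among them Trf, from 9040 ± 430.3 to 7872 ± 392 CPM, and their part in the fall of the RA synthesis genes was not tested. In BBROA against ConOA, none of the 5 fell. Aldh1a1 was 227 ± 11.1 CPM in ConOA and 262 ± 12.2 CPM in BBROA, and its interaction was 1.06 ± 0.12 (edgeR adjusted p = 2.3e-05). The small rise between these groups (0.20 ± 0.05, edgeR adjusted p = 0.0399) was lost without ConOA replicate 2 (0.17), BBROA replicate 1 (0.16), BBROA replicate 2 (0.21) or BBROA replicate 3 (0.23). Its close relative Aldh1a7 rose by 0.36 ± 0.06 in BBROA against ConOA (edgeR adjusted p = 0.00283) and by 1.36 ± 0.06 in BBROA against BBR, where Aldh1a1 rose by 1.13 ± 0.09. These relatives are nearly identical, so their reads may be shared between them and they may not be independent members of the 5. With OA alone Aox3 fell by 1.60 ± 0.11 on the log2 scale and Aox1 fell by 0.81 ± 0.07. The interaction was positive in 4 of the 5 genes: Aldh1a1, Aldh1a7 (0.87 ± 0.09), Aldh8a1 and Aox3 (1.22 ± 0.16). That of Aldh8a1 (0.95 ± 0.27, edgeR adjusted p = 0.0273) was lost without Con replicate 2 (0.89), Con replicate 3 (0.88), ConOA replicate 2 (0.84), BBR replicate 2 (0.87), BBR replicate 3 (0.94), BBROA replicate 1 (0.93) or BBROA replicate 3 (0.86).

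Among the receptors that RA acts through, none rose in any of the 4 group comparisons. Rara, another receptor of the same family as Rarb, had 28.4 ± 1.37 CPM in Con, 27.1 ± 0.873 CPM in BBR, 27.6 ± 1.55 CPM in ConOA and 22.6 ± 0.127 CPM in BBROA. It fell in BBROA against BBR (−0.26 ± 0.06, edgeR adjusted p = 0.00382). Its fall in BBROA against ConOA (−0.29 ± 0.07, edgeR adjusted p = 0.0272) was lost without ConOA replicate 1 (−0.27), ConOA replicate 3 (−0.26) or any BBROA library (−0.29 in each case). Rxra, the heterodimer partner, fell with BBR from 96.0 ± 1.49 to 77.3 ± 4.91 CPM (−0.30 ± 0.05, edgeR adjusted p = 0.000325). With OA it fell by 0.18 ± 0.05 (edgeR adjusted p = 0.0125), a call lost without ConOA replicate 2 (−0.17). Rxrg, at 1.65 ± 0.232 CPM in Con, fell with BBR by 1.05 ± 0.27. Rarg, a further RA receptor, fell in ConOA against Con (−0.71 ± 0.11, edgeR adjusted p = 0.000134) and in BBROA against BBR (−0.55 ± 0.13, edgeR adjusted p = 0.00347). Both calls held without any single library. Its fall in BBR against Con (−0.39 ± 0.10, edgeR adjusted p = 0.0105) was lost without Con replicate 3 (−0.31) or BBR replicate 2 (−0.30). BBROA against ConOA (−0.23 ± 0.13) was not called for Rarg.

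Upstream of RA, carotenoid cleavage and ester turnover responded mainly to OA or to each agent alone. Bco1, which splits beta-carotene into retinal, rose with OA from 11.5 ± 1.12 to 31.1 ± 3.59 CPM (1.44 ± 0.10, edgeR adjusted p = 4.67e-08) and by 1.42 ± 0.13 on top of BBR. Its relative Bco2 fell with OA by 0.73 ± 0.16. The alcohol dehydrogenase Adh1, which can oxidize retinol, fell with OA from 83.6 ± 5.49 to 41.1 ± 1.43 CPM (−1.02 ± 0.06, edgeR adjusted p = 1.44e-08). It also fell in BBR against Con, to 58.1 ± 4.08 CPM (−0.52 ± 0.06, edgeR adjusted p = 9.79e-06). Pnpla3, a lipase that releases retinol from its esters, rose with BBR (1.23 ± 0.22, edgeR adjusted p = 0.000577) and with OA (1.20 ± 0.22, edgeR adjusted p = 0.000622). BBROA, at 2.32 ± 0.327 CPM, was no higher than ConOA (2.67 ± 0.379 CPM). The low-count gene Cyp2s1, which can hydroxylate RA, rose with BBR from 0.299 ± 0.179 to 1.55 ± 0.743 CPM (edgeR adjusted p = 0.00105). Its fall in BBROA against BBR (−1.35 ± 0.42) was lost without BBR replicate 3 (−0.89), BBROA replicate 1 (−1.01) or BBROA replicate 2 (−1.33). Sdr16c5, below 1.42 CPM in all libraries, rose with BBR (1.43 ± 0.42, edgeR adjusted p = 0.0179), lost without Con replicate 2 (1.32), Con replicate 3 (1.23) or BBR replicate 2 (1.07). In BBROA against BBR it fell by 1.76 ± 0.56, lost without BBR replicate 2 (−1.40) or BBROA replicate 3 (−1.24). The fatty acid and RA carrier Fabp5 fell in BBROA against BBR from 162 ± 10.2 to 93.3 ± 1.94 CPM (−0.79 ± 0.05). Its call in BBROA against ConOA (−0.18 ± 0.05, edgeR adjusted p = 0.0472) did not survive leaving out any of the 6 libraries (−0.20 to −0.15).

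**Figure D3:**
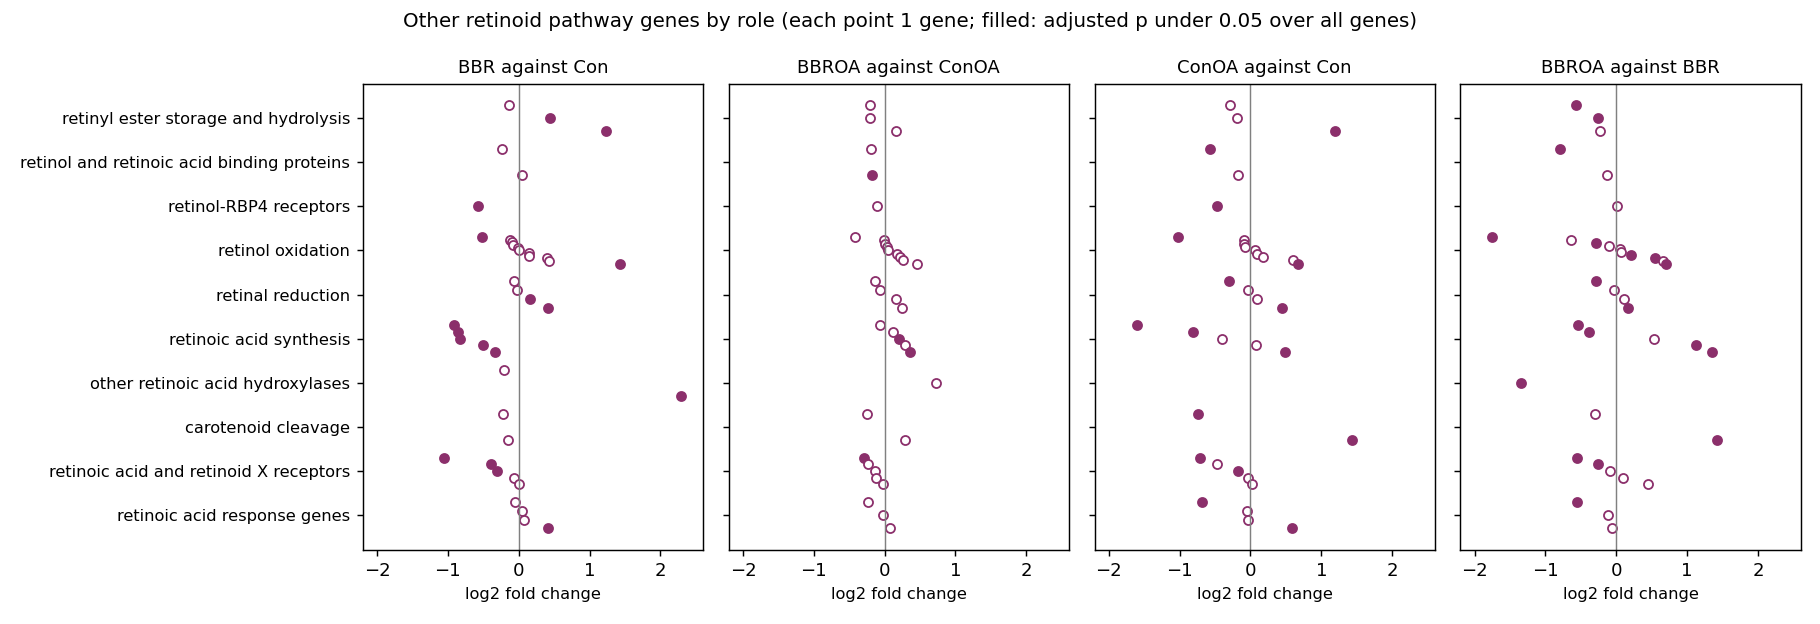
Log2 fold changes of the other pathway genes by role, each point a gene, in the 4 group comparisons. Filled points passed an adjusted p of 0.05 over all genes, and the 5 RA synthesis genes all lie left of 0 in BBR against Con.

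Cyp26a1 had the lowest BBR effect in the presence of OA among the 7 genes and the tested list genes. The 7 genes were picked with these values known, so the rankings given here are descriptions and nothing is read from them. No tested gene of the list fell as far in BBROA against ConOA as Cyp26a1 (−1.39), Cyp26b1 (−1.12, a call lost without 5 of the 6 libraries in turn) or Rarb (−0.92). Of the tested list genes in that comparison, Rara and Fabp5 were the only ones that fell, by 0.29 and 0.18. Dhrs3 and 4 RA synthesis genes had a positive interaction, with the fall under BBR seen without OA. The plot of the BBR effect without and with OA shows the same contrast.

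**Figure D4:**
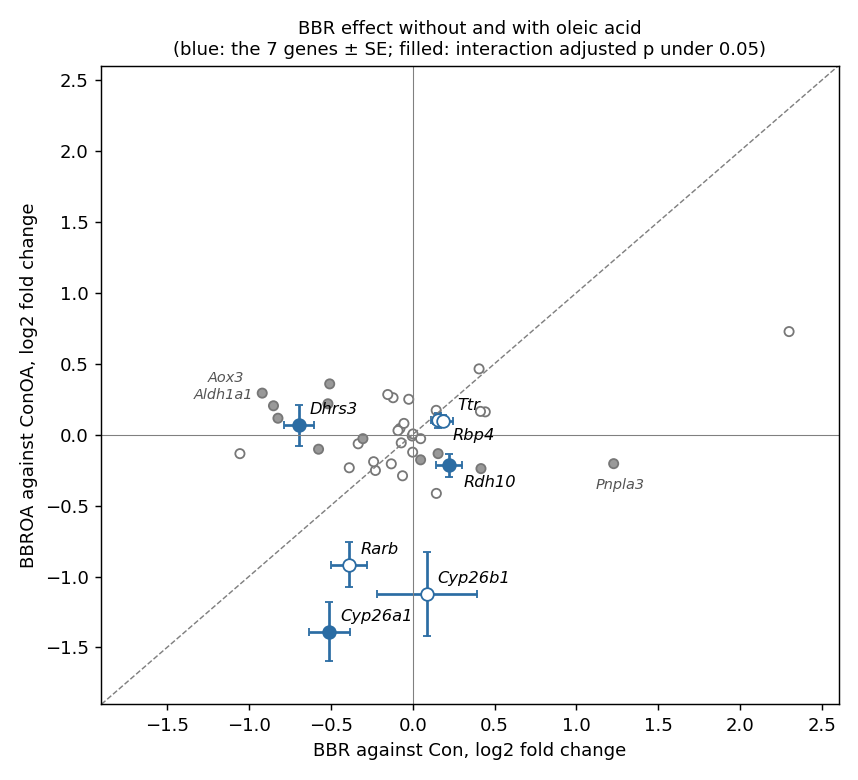
BBR effect without OA (x axis, BBR against Con) against the BBR effect with OA (y axis, BBROA against ConOA), both as log2 fold changes, for the 7 genes (blue, with SE) and the other pathway genes tested in both (grey). Filled points passed the interaction test at an adjusted p of 0.05 and the dashed line marks equal effects. Cyp26a1 (−0.51 and −1.39) lies below the line, and Dhrs3 (−0.70 and 0.07) above it.

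Genes with the most similar course over the 12 libraries were sought for the 4 genes whose group means spanned at least 1 on the log2 scale, among 11353 genes with a mean of at least 1 CPM. Likeness was the root mean square difference of log2 CPM after centring each gene, and it is a description without a test. Closest to Cyp26a1 were Rem2 (difference 0.33), Lmcd1 (0.41) and Cdh17 (0.44). Cdh17 went from 26.2 ± 3.63 CPM in Con to 2.12 ± 0.348 CPM in BBROA. Closest to Rarb were Palmd (0.18), Sox4 (0.18) and Hmcn2 (0.18), and Sox4 went from 119 ± 10.8 to 48.7 ± 1.23 CPM. Dhrs3 was matched most nearly by Tcea3 (0.17), Fam25c (0.17) and Ddo (0.21). Tcea3 had 42.4 ± 1.88 CPM in Con, 23.1 ± 3.04 CPM in BBR, 11.1 ± 2.11 CPM in ConOA and 11.8 ± 0.911 CPM in BBROA, nearly the same steps as Dhrs3. Cyp26b1 was matched by Gpr35 (0.26), Itga2 (0.32) and Rrad (0.34), of which Gpr35 was 2.84 ± 0.225 CPM in Con and 5.21 ± 0.694 CPM in ConOA.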

How the data were processed

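RNA sequencing libraries from poly(A)-enriched RNA of primary mouse hepatocytes were analysed, 3 per group, with group and replicate number taken from the sample titles. For each library the authors deposited estimated counts, some of them fractional, and FPKM values per feature. The submitters' processing notes name the build mm10. The aligner, the quantification program and the use of strand were not given in the sources used here. Estimated counts were rounded. Genes passing filterByExpr (minimum count 10) were scaled by TMM and tested with the two-sided quasi-likelihood F test of edgeR 4.0.16 (R 4.3.3) on the 6 libraries of each comparison, and on all 12 for the interaction, with Benjamini-Hochberg adjustment over all genes tested and a threshold of 0.05. The scripts were checked on simulated counts. CPM use TMM library sizes. The deposited FPKM were used only for levels per length.

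The 7 genes, the lists and the rule for named genes were chosen with earlier results of these data known. Named were the 7 genes, the up to 6 largest called changes of the pathway list in each comparison, and Rara, Rxra and Aldh1a1; another gene of the rule is not reported here. Added were the 3 genes closest in course to each of the 7 whose group means spanned at least 1 on the log2 scale. Cyp26c1, Tgm2, Hoxa5, Rarres1, Stra6l, Nrip1, Rarg, Rdh11 and Rdh14 were named after their values were seen. Coordinates are from GENCODE for GRCm38, the same assembly as mm10. Replicate pairs within groups differed beyond sampling noise (chi-square over degrees of freedom 2.69 to 7.26 over 12 pairs), so no library was a copy. Alternatives were RLE and upper quartile scaling, no low-count filter, DESeq2 1.42.0, the replicate number as a block, dispersion over all 12 libraries, and leaving out each library. CPM from raw library totals and the deposited FPKM were alternatives for levels.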

Additional observations from a re-analysis of the deposited data

Results flagged for a closer look

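The BBR effect differed with and without OA, by the interaction term on all 12 libraries, in 3 of the 7 genes and in 11 other pathway genes. For the 7 genes these are descriptions: Cyp26a1 −0.87 ± 0.28 and Rdh10 −0.43 ± 0.11 were more negative with OA, and Dhrs3 was more positive (0.77 ± 0.18). Cyp26a1 lost its call without 10 of the 12 libraries in turn and in DESeq2, whereas Rdh10 and Dhrs3 kept theirs without any single library. Among the RA synthesis genes the interaction was positive in Aldh1a1 (1.06 ± 0.12, edgeR adjusted p = 2.3e-05), Aldh1a7 (0.87 ± 0.09, edgeR adjusted p = 9.23e-06), Aldh8a1 (0.95 ± 0.27, edgeR adjusted p = 0.0273) and Aox3 (1.22 ± 0.16, edgeR adjusted p = 9.72e-05). Aldh8a1 lost its call without 7 of the 12 libraries in turn and in DESeq2. The interaction was also positive in Adh1 (0.75 ± 0.09, edgeR adjusted p = 3.68e-05) and in the retinol receptor gene Stra6l (0.48 ± 0.10, edgeR adjusted p = 0.00486). Rxra had 0.29 ± 0.08 (edgeR adjusted p = 0.0335), which was lost without 8 of the 12 libraries in turn, the 4 that kept it being ConOA replicate 1, BBR replicates 1 and 3 and BBROA replicate 2 (0.22 to 0.33 over all 12). Negative values were found in Pnpla3 (−1.42 ± 0.28, edgeR adjusted p = 0.00271) and in Nrip1, a corepressor gene that RA induces (−0.65 ± 0.11, edgeR adjusted p = 0.000719). Nrip1 itself rose in BBR against Con (0.42 ± 0.06, edgeR adjusted p = 0.000152) and in ConOA against Con (0.59 ± 0.07, edgeR adjusted p = 1.87e-05). The interactions of Rdh11 (−0.28 ± 0.08, edgeR adjusted p = 0.0309) and Fabp5 (−0.22 ± 0.07, edgeR adjusted p = 0.0429) were negative too. Rdh11 lost its call without 5 of the 12 libraries in turn (−0.33 to −0.21), namely Con replicates 1 and 3, ConOA replicate 2, BBR replicate 2 and BBROA replicate 3. Fabp5 lost its call without 9 of them (−0.26 to −0.17) and kept it without ConOA replicate 2, BBR replicate 1 or BBROA replicate 3.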

How the results depend on the processing

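Of the fold changes of the 7 genes under the alternatives, 404 kept their direction and their side of the threshold, 35 lost the call, 5 gained it and 10 changed sign. Of those of the other named pathway genes, 447 kept both, 45 lost the call and 4 changed sign. The changes of sign were all in values not called either way. For Rbp4 in ConOA against Con, upper quartile scaling gave −0.034. The others came from leaving out 1 library, over which Cyp26b1 ranged from −0.063 to 0.22 in BBR against Con and from −0.45 to 0.15 in BBROA against BBR, and Dhrs3 from −0.048 to 0.29 in BBROA against ConOA. Rbp4 ranged from −0.038 to 0.057 in ConOA against Con and from −0.11 to 0.0031 in the interaction, Rxra from −0.067 to 0.034 in BBROA against ConOA, and Rara from −0.060 to 0.013 in ConOA against Con. Counts of genes called stayed within 1.5 times of the main value in 58 of 65 cases, and those of pathway genes in 55 of 65. The comparison that depended most on the processing was BBROA against ConOA, with 563 genes called. Leaving out 1 library gave 216 to 632, the lowest without BBROA replicate 3. Its 4 pathway genes became 7 without the low-count filter, 2 with DESeq2 and 1 to 3 without 1 library. The 1551 genes called for the interaction became 1027 to 1679 without 1 library, the lowest without ConOA replicate 2, and its 11 pathway genes became 7 to 12, the lowest without Con replicate 3 or BBR replicate 2. With fewer samples, a fit has less power; for the other shifts the cause was not tested.

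Deviations of same-numbered libraries were weakly correlated, always with a positive sign (0.023 to 0.155), and 9 of the 12 libraries were most correlated with a library of their own number. What the replicate number stands for was not given, and the main fits did not use it. With the replicate number as a block, BBROA against ConOA called 1333 genes, 578 higher and 755 lower, and 9 pathway genes. The block also brought the interactions of Cyp26b1 (−1.23) and Rarb (−0.53) past the threshold. Levels relative to Con moved by more than 1 SD in 7 of 42 cases. At 9 to 37 counts per library, Cyp26b1 is limited by depth.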

Other observations

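Beyond the genes of the named rule, some others bear on retinol handling or on the RA response and were picked after their values were seen. Stra6l, which encodes a receptor for retinol bound to RBP4 in the liver, fell from 65.2 ± 4.98 CPM in Con to 43.6 ± 2.14 CPM in BBR (SD, n = 3; log2 fold change −0.57 ± 0.06, edgeR adjusted p = 3.93e-06) and to 47.0 ± 2.76 CPM in ConOA (−0.46 ± 0.07, edgeR adjusted p = 5.75e-05). Every library of BBR and ConOA lay below every Con library, and both calls held without any single library. BBROA had 43.9 ± 4.52 CPM. Rdh14, a retinal reductase, rose with BBR by 0.41 ± 0.08 (edgeR adjusted p = 0.000675), a call that also held without any single library. Tgm2, a transglutaminase gene known to respond to RA, was called in none of the comparisons, at 2877 ± 157 CPM in Con, 2961 ± 319 CPM in BBR, 2792 ± 113 CPM in ConOA and 2744 ± 317 CPM in BBROA. Hoxa5, also listed as an RA response gene, was called in none either. Rarres1, of the same role, fell in ConOA against Con (−0.69 ± 0.10, edgeR adjusted p = 7.81e-05). It also fell in BBROA against BBR (−0.56 ± 0.07, edgeR adjusted p = 3.17e-05), and both calls held without any single library. Rarres1 was not called in BBR against Con (−0.05 ± 0.08) or in BBROA against ConOA (0.08 ± 0.10).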
